A study of Caenorhabditis elegans with 6 samples.

Results

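Caenorhabditis elegans genes that the transcription factor DAF-16 is known to induce, 10 in number, were followed across 6 RNA-seq libraries: sod-3, ctl-1, ctl-2, mtl-1, ftn-1, icl-1, nnt-1, dod-3, lea-1 and hil-1. They were picked by gene name from the deposited count table, where all 10 were found among 22407 genes with counts. The libraries labelled gtr-1 RNAi (n = 3) came from AM140 worms fed HT115 bacteria that express RNAi against the 3'UTR of gtr-1, and the EV libraries (n = 3) from AM140 worms fed HT115 with an empty vector. Worms of both groups carry the transgene rmIs132 [unc-54p::Q35::YFP], which puts a polyglutamine and yellow fluorescent protein fusion under the body wall muscle myosin promoter unc-54. Both groups were kept at 20 °C and given their bacteria for 2 generations; generation 2 was harvested on day 6 of adulthood, as pools of whole worms cleared of progeny every day. Whole-worm RNA mixes all tissues, so fewer cells of a type and less RNA per cell cannot be told apart. All listed markers of muscle, neurons and germline had counts, as did 12 of 13 listed for intestine. The series title concerns a neuronal G protein-coupled receptor that acts on protein homeostasis in other tissues.

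DAF-16 is the worm FOXO factor at the end of the insulin-like pathway. When the receptor DAF-2 signals through the kinases AGE-1, PDK-1 and AKT-1, phosphorylated DAF-16 is held in the cytoplasm; when signalling drops, it enters the nucleus and induces genes for detoxification, metal binding, metabolism and long survival. The genes followed here include several classic readouts of that switch, many of them active in the intestine, and sod-3 is widely used as a reporter of it.

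Each library held between 33254426 and 41902475 counts. The targeted transcript gave no check of the knockdown: gtr-1 had 20, 24 and 19 counts in the libraries labelled gtr-1 RNAi replicates 1, 2 and 3, against 16, 25 and 20 in EV replicates 1, 2 and 3. Its summed counts were 63 under that label and 61 under EV, so gtr-1 RNAi below stands for what the labels state, and each direction given rests on them. Over all genes tested, gtr-1 RNAi replicate 3 lay nearest to EV replicate 1, with log2 CPM that differed by 0.184 (root mean square), against 0.346 and 0.439 from gtr-1 RNAi replicates 1 and 2. From EV replicates 2 and 3 it differed by 0.276 and 0.337, also less than from either of those gtr-1 RNAi libraries. Fold changes without it are given for the 10 genes, and counts of calls without it for each gene list. CPM are counts scaled to a common library total with TMM factors, which even out library composition; TPM divide counts by exon length before scaling and serve to compare genes.

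Of the 10 genes, 8 had lower mean levels in the libraries labelled gtr-1 RNAi and 2, sod-3 and ftn-1, had higher means. Over all 14683 genes tested, 7414 had negative fold changes. In 7 of the 8, namely ctl-1, ctl-2, mtl-1, nnt-1, dod-3, lea-1 and hil-1, each gtr-1 RNAi library lay below each EV library. That placement held for 19.6% of all 14683 genes tested, and the reverse for 16.6%. The edgeR quasi-likelihood test called 0 of the 10 genes at an adjusted p under 0.05, as it called 0.0% of all genes lower and 0.0% higher. At an unadjusted p under 0.05 it had 8 of the 10 lower and 0 higher, against 15.3% and 12.9% of all genes. The DESeq2 Wald test, the main alternative, called 6 lower (ctl-1, ctl-2, mtl-1, nnt-1, lea-1 and hil-1) and 0 higher, against 7.57% of 12832 genes lower and 6.65% higher. The median log2 fold change by edgeR was -0.53 over the 10 genes and -0.0025 over all genes tested. Without gtr-1 RNAi replicate 3, edgeR called 7 of the 10 lower, against 15.0% of all genes, and DESeq2 called 8 lower and 1 higher, against 12.9% and 9.99%.

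**Figure D1:**
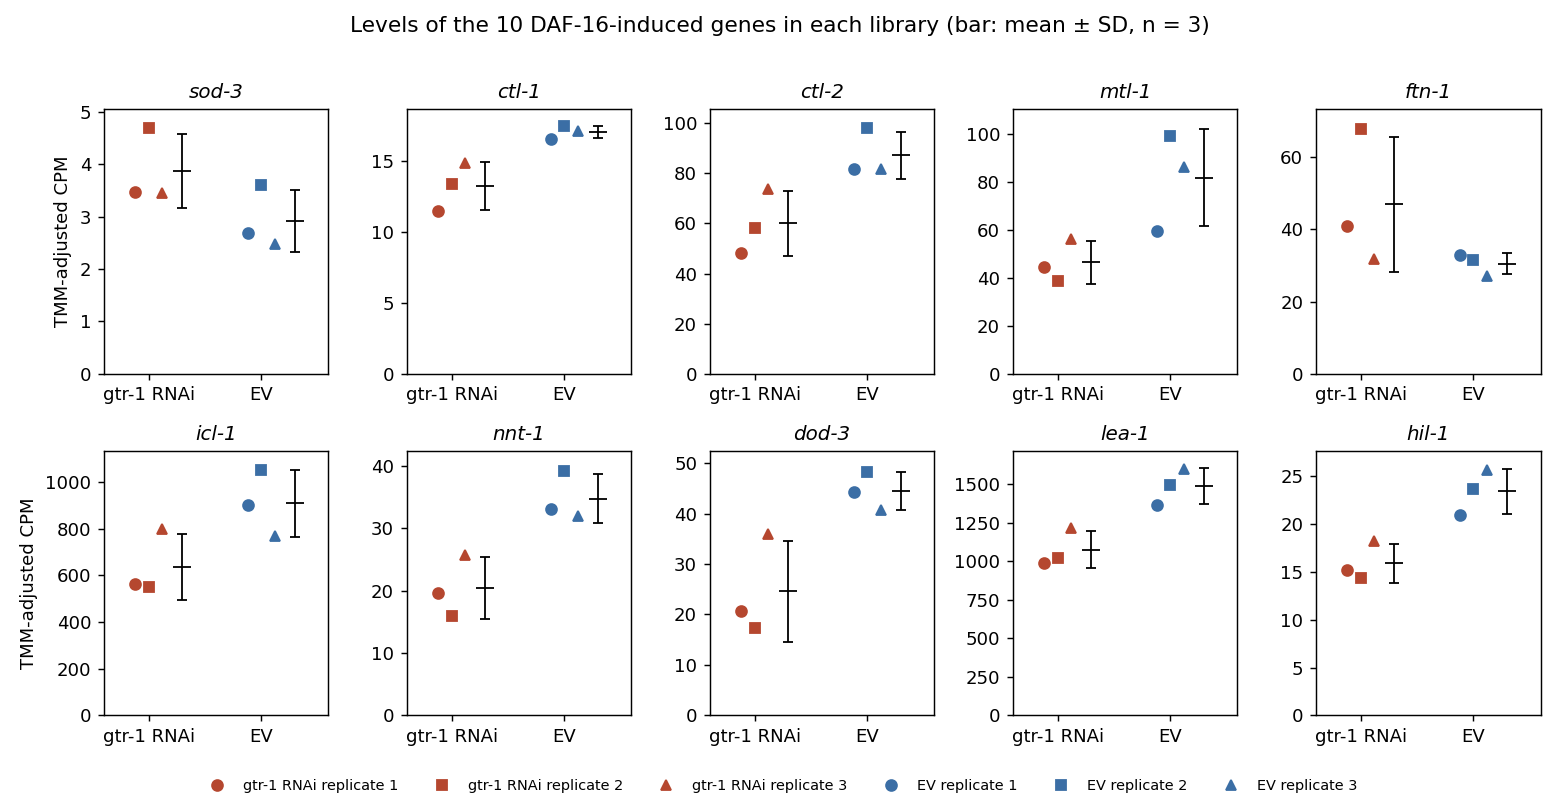
TMM-adjusted CPM of each of the 10 genes (vertical axes from 0), with 1 point per library, gtr-1 RNAi to the left of EV, and bars for mean ± SD (n = 3 each). In 7 panels the gtr-1 RNAi points all lie below the EV points, and gtr-1 RNAi replicate 3 (triangles) is the highest gtr-1 RNAi library in all 8 genes with lower means.

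Superoxide dismutases turn superoxide into peroxide, which catalases break down. Of the 10 genes, sod-3 had a higher mean under gtr-1 RNAi, and the catalase genes ctl-1 and ctl-2 had lower ones. These counts do not measure peroxide. The gene sod-3 (WBGene00004932, chromosome X, 17092753 to 17094306 of WBcel235) encodes a mitochondrial manganese superoxide dismutase. It was at 3.48, 4.69 and 3.45 CPM in gtr-1 RNAi replicates 1, 2 and 3, against 2.68, 3.60 and 2.48 CPM in EV replicates 1, 2 and 3. The groups overlapped, because EV replicate 2 lay above gtr-1 RNAi replicates 1 and 3. The log2 fold change of sod-3 was 0.41 ± 0.20 SE (edgeR adjusted p = 0.230). Leaving out gtr-1 RNAi replicate 3 gave 0.48 and leaving out replicate 2 gave 0.25; the fits that each left out another of the 4 remaining libraries gave 0.30 to 0.59. It had the fewest counts of the 10, with 85 to 187 counts per library, and 10.1% of its exon bases overlap C08A9.3 and lido-1 on the opposite strand. The other manganese dismutase gene, sod-2, averaged 93.4 ± 3.40 CPM under gtr-1 RNAi and 96.8 ± 3.17 CPM under EV (SD, n = 3 each). The copper and zinc dismutase genes sod-1, sod-4 and sod-5 had log2 fold changes of 0.12, -0.13 and -0.31, and none of the dismutase genes was called by edgeR or DESeq2, although DESeq2 gave sod-5 no adjusted p. With gtr-1 RNAi replicate 3 left out, both tools called sod-1 higher, at an edgeR log2 fold change of 0.18 (adjusted p = 0.0229).

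The catalase genes lie side by side on the minus strand of chromosome II, ctl-2 (WBGene00000831) at 14299556 to 14302027, ctl-1 (WBGene00000830) at 14303568 to 14306260 and ctl-3 at 14307798 to 14310779. They are close paralogs, so reads could be split between them. The peroxisomal catalase gene ctl-2 was at 48.2, 58.1 and 73.9 CPM in gtr-1 RNAi replicates 1, 2 and 3, against 81.7, 98.0 and 81.9 CPM in EV replicates 1, 2 and 3. Its log2 fold change was -0.54 ± 0.17 SE by edgeR (adjusted p = 0.131) and -0.53 ± 0.13 SE by DESeq2 (adjusted p = 0.00281). The cytosolic catalase gene ctl-1 was at 11.5, 13.4 and 14.9 CPM in gtr-1 RNAi replicates 1, 2 and 3, against 16.6, 17.4 and 17.1 CPM in EV replicates 1, 2 and 3. For ctl-1 the log2 fold change was -0.36 ± 0.11 SE by edgeR (adjusted p = 0.117), and DESeq2 called it lower (adjusted p = 0.0387). The groups did not overlap for either gene. Without gtr-1 RNAi replicate 3 the edgeR log2 fold changes were -0.71 for ctl-2 (adjusted p = 0.00972) and -0.45 for ctl-1 (adjusted p = 0.0150). The neighbouring ctl-3, whose product is also a catalase, averaged 27.0 ± 1.38 CPM under gtr-1 RNAi and 29.5 ± 2.08 CPM under EV, with overlapping groups.

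Of the metal-binding genes, mtl-1 had a lower mean under gtr-1 RNAi and ftn-1 a higher one. The metallothionein gene mtl-1 (WBGene00003473, chromosome V, 6691371 to 6691863), whose product binds metal ions through cysteines, was at 44.4, 38.6 and 56.2 CPM in gtr-1 RNAi replicates 1, 2 and 3. In EV replicates 1, 2 and 3 it was at 59.5, 99.0 and 86.4 CPM. The groups did not overlap, but the gap between gtr-1 RNAi replicate 3 and EV replicate 1 was small. For mtl-1 the log2 fold change was -0.82 ± 0.24 SE by edgeR (adjusted p = 0.125) and -0.81 ± 0.26 SE by DESeq2 (adjusted p = 0.0195). With gtr-1 RNAi replicate 3 left out, the edgeR value was -0.98 (adjusted p = 0.0863). The second metallothionein gene, mtl-2, had a higher mean under gtr-1 RNAi: it was at 42.8, 33.2 and 23.3 CPM in gtr-1 RNAi replicates 1, 2 and 3, against 22.4, 24.3 and 20.7 CPM in EV replicates 1, 2 and 3. DESeq2 called mtl-2 higher (log2 fold change 0.57 ± 0.18 SE, adjusted p = 0.0191) although gtr-1 RNAi replicate 3 lay within the EV range. With that library left out, the edgeR log2 fold change of mtl-2 was 0.76 (adjusted p = 0.00290).

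The ferritin gene ftn-1 (WBGene00001500, chromosome V, 7546468 to 7547579), which encodes an iron storage protein of the intestine, had 41.1, 67.8 and 31.9 CPM in gtr-1 RNAi replicates 1, 2 and 3. In EV replicates 1, 2 and 3 it had 32.9, 31.5 and 27.2 CPM. Replicates 1 and 2 of gtr-1 RNAi lay above the EV libraries, and replicate 3 lay among them. The fitted log2 fold change of ftn-1 was 0.62 ± 0.30 SE (edgeR adjusted p = 0.235), 0.26 without gtr-1 RNAi replicate 2 and 0.84 without gtr-1 RNAi replicate 3. DESeq2 called ftn-1 higher only in the fit without gtr-1 RNAi replicate 3 (adjusted p = 0.0150). Its paralog ftn-2 averaged 129.9 ± 21.2 CPM under gtr-1 RNAi and 88.3 ± 9.75 CPM under EV, without overlap, and DESeq2 called it higher (0.57 ± 0.12 SE, adjusted p = 0.000396). In the edgeR fit without gtr-1 RNAi replicate 3, ftn-2 had a log2 fold change of 0.69 (adjusted p = 0.00224).

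Transcripts of both metabolic enzymes had lower means under gtr-1 RNAi. The gene icl-1 (WBGene00001564, chromosome V, 724332 to 728004) encodes the bifunctional enzyme of the glyoxylate cycle, isocitrate lyase with malate synthase, which lets worms build carbohydrate from fat. It was at 561.1, 548 and 797.5 CPM in gtr-1 RNAi replicates 1, 2 and 3, against 904, 1053 and 769 CPM in EV replicates 1, 2 and 3. The groups overlapped, since gtr-1 RNAi replicate 3 lay above EV replicate 3. Its log2 fold change was -0.52 ± 0.19 SE by edgeR (adjusted p = 0.165) and -0.51 by DESeq2 (adjusted p = 0.0972), and -0.71 by edgeR without gtr-1 RNAi replicate 3 (adjusted p = 0.0313). The gene nnt-1 (WBGene00003778, chromosome X, 6122311 to 6127554) encodes the nicotinamide nucleotide transhydrogenase of the inner mitochondrial membrane, a source of mitochondrial NADPH. It was at 19.6, 15.9 and 25.7 CPM in gtr-1 RNAi replicates 1, 2 and 3, against 33.0, 39.2 and 31.9 CPM in EV replicates 1, 2 and 3. The groups did not overlap, and the log2 fold change was -0.77 ± 0.18 SE by edgeR (adjusted p = 0.112) and -0.76 ± 0.16 SE by DESeq2 (adjusted p = 0.000258). Leaving out gtr-1 RNAi replicate 3 gave an edgeR value of -0.97 (adjusted p = 0.00148).

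The remaining 3 genes are known for long-lived or arrested worms. The gene lea-1 (WBGene00002263, chromosome V, 10011923 to 10028168) encodes a protein related to the late embryogenesis abundant proteins of plants and acts in desiccation tolerance. It was at 990.2, 1019 and 1213 CPM in gtr-1 RNAi replicates 1, 2 and 3, against 1362, 1496 and 1596 CPM in EV replicates 1, 2 and 3. For lea-1 the log2 fold change was -0.47 ± 0.09 SE by edgeR (adjusted p = 0.112) and -0.46 ± 0.09 SE by DESeq2 (adjusted p = 3.87e-05). The linker histone H1 gene hil-1 (WBGene00001852, chromosome V, 14949777 to 14952799) was at 15.2, 14.4 and 18.2 CPM in gtr-1 RNAi replicates 1, 2 and 3, against 21.0, 23.7 and 25.6 CPM in EV replicates 1, 2 and 3. Its log2 fold change was -0.56 ± 0.12 SE by edgeR (adjusted p = 0.112) and -0.55 ± 0.13 SE by DESeq2 (adjusted p = 0.00108). The groups overlapped for neither gene, and EV replicate 3 was the highest library for both. Without gtr-1 RNAi replicate 3 the edgeR values were -0.56 for lea-1 (adjusted p = 0.00111) and -0.66 for hil-1 (adjusted p = 0.00256).

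The gene dod-3 (WBGene00016052, chromosome V, 2730622 to 2731098), named for being downstream of DAF-16, is induced in worms with low insulin signalling. It was at 20.6, 17.3 and 36.0 CPM in gtr-1 RNAi replicates 1, 2 and 3, against 44.3, 48.3 and 40.8 CPM in EV replicates 1, 2 and 3. The groups did not overlap, but gtr-1 RNAi replicate 3 lay nearer to EV than to replicates 1 and 2. The log2 fold change was -0.85 ± 0.29 SE by edgeR (adjusted p = 0.144) and -0.84 ± 0.34 SE by DESeq2 (adjusted p = 0.0710). By edgeR it was -1.23 ± 0.10 SE without gtr-1 RNAi replicate 3 (adjusted p = 0.000306).

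**Figure D2:**
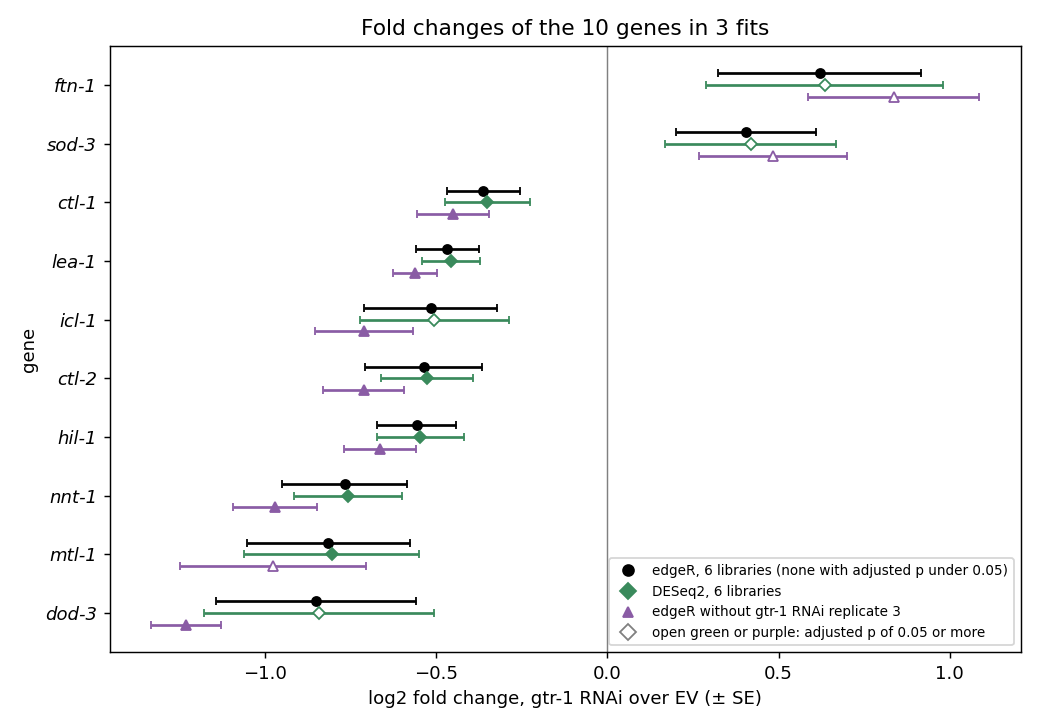
Log2 fold changes (gtr-1 RNAi over EV, ± SE) of the 10 genes by edgeR with 6 libraries (black), DESeq2 with 6 libraries (green) and edgeR without gtr-1 RNAi replicate 3 (purple). The 8 genes with lower means lie below 0 in all 3 fits; filled green symbols mark the 6 DESeq2 calls and filled purple symbols the 7 edgeR calls made without that library.

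How far the calls rested on a single library differed between genes. With each library left out in turn, DESeq2 called lea-1 and nnt-1 lower in 6 of 6 fits and hil-1 in 5 of 6, missing it without gtr-1 RNAi replicate 1 (adjusted p = 0.0579). It called mtl-1 in 3 of the 6 fits, ctl-2 in 2, and ctl-1, dod-3, icl-1 and ftn-1 in 1, that without gtr-1 RNAi replicate 3. It called sod-3 in 0 of them. Its count of genes called lower among the 10 was 2, 3 and 8 without gtr-1 RNAi replicate 1, 2 and 3, against 0.439%, 1.71% and 12.9% of all genes, and 5, 4 and 3 without EV replicate 1, 2 and 3, against 5.61%, 2.1% and 0.836%. Higher were 0 of the 10 in these fits other than that without gtr-1 RNAi replicate 3, against 0.887%, 1.84%, 6.28%, 2.96% and 1.71% of all genes without gtr-1 RNAi replicates 1 and 2 and EV replicates 1, 2 and 3. By edgeR, 7 genes were called lower in the fit without gtr-1 RNAi replicate 3 and 0 higher, against 15.0% and 8.77% of all genes. In each of the other 5 fits edgeR called 0 of the 10, as it called 0.0% of all genes lower and 0.0% higher. With library quality weights, limma-voom called 8 of the 10 lower, against 21.6% of all genes, and 0 higher, against 16.1%. The 10 fold changes kept their signs in all 24 alternative settings. All of these drew on the same 6 libraries, and that with an adjusted p under 0.1 reused the main fit, so it could not change a sign.

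Within a group the 10 genes also varied between libraries. Their counts made up 0.171%, 0.171% and 0.231% of all counts in gtr-1 RNAi replicates 1, 2 and 3, against 0.261%, 0.294% and 0.276% in EV replicates 1, 2 and 3. The genes lea-1 and icl-1 gave 87.2% to 88.6% of these counts. The highest library was EV replicate 2 for 6 genes, EV replicate 3 for 2, lea-1 and hil-1, and gtr-1 RNAi replicate 2 for 2, sod-3 and ftn-1. The lowest was gtr-1 RNAi replicate 2 for 5 genes, gtr-1 RNAi replicate 1 for 3, and EV replicate 3 for sod-3 and ftn-1. In 6 of the 10 genes gtr-1 RNAi replicate 3 lay nearer to the EV mean than to the mean of gtr-1 RNAi replicates 1 and 2, on log2 CPM, against 58.3% of all genes tested.

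Per exon length, the 10 genes spanned a wide range of levels. Under gtr-1 RNAi the order was lea-1 at 318 ± 44.7 TPM, icl-1 at 291 ± 72.9, mtl-1 at 178 ± 39.7, ftn-1 at 109.8 ± 41.1, dod-3 at 84.3 ± 36.8 and ctl-2 at 53.4 ± 12.9 TPM, followed by hil-1 at 25.0 ± 3.93, ctl-1 at 12.2 ± 1.82, nnt-1 at 9.02 ± 2.46 and sod-3 at 6.26 ± 1.02 TPM (SD, n = 3). In EV libraries the order was lea-1 at 455 ± 36.4 TPM, icl-1 at 429 ± 61.1, mtl-1 at 324 ± 76.4, dod-3 at 156.7 ± 11.1, ctl-2 at 80.1 ± 7.30 and ftn-1 at 74.6 ± 7.13 TPM, followed by hil-1 at 38.2 ± 3.83, ctl-1 at 16.2 ± 0.261, nnt-1 at 15.9 ± 1.53 and sod-3 at 4.90 ± 0.916 TPM. The ferritin gene ftn-1 thus had a higher mean than dod-3 and ctl-2 under gtr-1 RNAi and a lower one than both under EV. Ranges of neighbours in the order overlapped under gtr-1 RNAi for lea-1 with icl-1, mtl-1 with ftn-1, ftn-1 with dod-3, dod-3 with ctl-2, ctl-1 with nnt-1 and nnt-1 with sod-3. Under EV they overlapped for lea-1 with icl-1, icl-1 with mtl-1, ctl-2 with ftn-1 and ctl-1 with nnt-1. The transcripts of mtl-1 and dod-3 are short, with 373 and 420 exon bases.

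Ratios of related genes within a library do not depend on how libraries are scaled. The TPM ratio of mtl-1 to mtl-2 was 0.964, 1.08 and 2.25 in gtr-1 RNAi replicates 1, 2 and 3, against 2.48, 3.80 and 3.88 in EV replicates 1, 2 and 3. The groups did not overlap (difference -1.32 on the log2 scale; exact permutation p = 0.1, two-sided, the smallest that 3 against 3 allows, and 0.35 after Benjamini-Hochberg adjustment over 7 ratios). The ratio of hil-1 to the H1 gene hil-5 was 0.0515, 0.0461 and 0.0599 in gtr-1 RNAi replicates 1, 2 and 3, against 0.0717, 0.0714 and 0.0922 in EV replicates 1, 2 and 3, with the same exact permutation p of 0.1 and adjusted p of 0.35. This ratio mostly repeats the lower level of hil-1, with a log2 difference of -0.58 against -0.56 for hil-1 alone by edgeR. Some other H1 genes fell further than hil-1 and others did not fall, and ratios to those were not computed. The ratio of ctl-2 to ctl-3 was 1.83, 2.06 and 2.89 in gtr-1 RNAi replicates 1, 2 and 3, against 3.05, 3.19 and 2.74 in EV replicates 1, 2 and 3 (exact permutation p = 0.2, adjusted p = 0.35). The groups overlapped there through gtr-1 RNAi replicate 3. The ratio of ftn-1 to ftn-2 was 0.309, 0.515 and 0.325 in gtr-1 RNAi replicates 1, 2 and 3. In EV replicates 1, 2 and 3 it was 0.367, 0.371 and 0.377. Its geometric means were 0.372 under gtr-1 RNAi and 0.371 under EV (exact permutation p = 1.0). Replicates 1 and 3 of gtr-1 RNAi lay below each EV library, and replicate 2 lay above each. The ratios of sod-3 to sod-2, ctl-1 to ctl-3 and ctl-1 to ctl-2 also overlapped between groups, with log2 differences of 0.46, -0.25 and 0.18. These 7 ratios were chosen after the gene values were known.

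**Figure D3:**
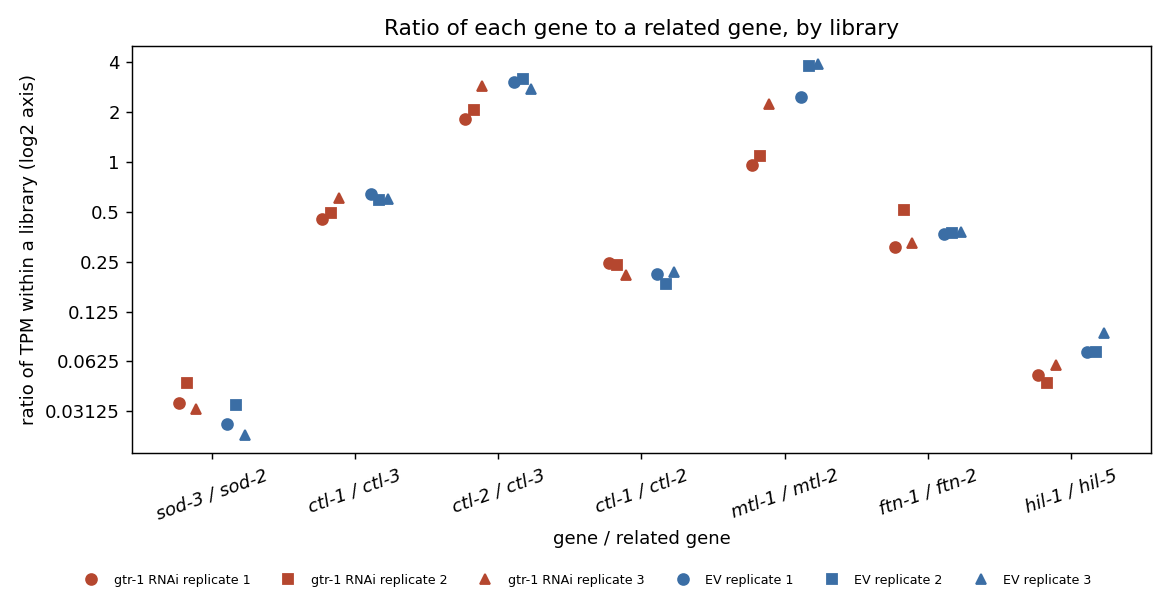
Ratio of the TPM of a gene to that of a related gene within each library (log2 axis), gtr-1 RNAi points to the left of EV points for each of 7 ratios. The groups are apart for mtl-1 over mtl-2 and for hil-1 over hil-5 and overlap for the other 5.

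Other genes of the linker histone H1 family, whose products bind DNA between nucleosomes, were set beside hil-1. Of these, his-24, hil-2, hil-3 and hil-7 lay below EV in every gtr-1 RNAi library, a placement that held for 19.6% of all genes tested. The largest of these differences was that of hil-7, at 7.49, 4.26 and 22.7 CPM in gtr-1 RNAi replicates 1, 2 and 3, against 28.1, 37.2 and 35.8 CPM in EV replicates 1, 2 and 3 (log2 fold change -1.55 ± 0.65 SE, edgeR adjusted p = 0.202). DESeq2 called hil-2 lower (68.2 ± 23.6 CPM under gtr-1 RNAi and 122.7 ± 11.9 CPM under EV, adjusted p = 0.0354) and called none of the other 3. The abundant genes hil-4 and hil-5 had log2 fold changes of 0.14 and 0.014, and hil-6 averaged 0.475 CPM under gtr-1 RNAi and 0.813 CPM under EV. Without gtr-1 RNAi replicate 3, edgeR called his-24, hil-2, hil-3, hil-6 and hil-7 lower and hil-4 higher, with log2 fold changes of -1.301 for his-24, -1.15 for hil-2, -1.61 for hil-3 and -2.53 for hil-7. Over all genes, that fit called 15.0% lower and 8.77% higher, and DESeq2 with 6 libraries called 7.57% lower.

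On a list of 27 other DAF-16-induced genes, DESeq2 called 5 lower and 1 higher, against 7.57% and 6.65% of all genes. Of the 27, 7 had no adjusted p by DESeq2 and could not be called. The 7.57% and 6.65%, taken over genes with an adjusted p, apply to each list below as well, where some genes also had none. For the 27, edgeR, which tested 22, called 0, and with 6 libraries it called 0 in each list below. Here and in those lists, adjusted p are by DESeq2 unless named as edgeR's. Fold changes of single genes are by DESeq2 where it called the gene and by edgeR otherwise. The median log2 fold change of the 22 was -0.25. Lower by DESeq2 were the small heat shock gene hsp-12.6 (0.727 ± 0.452 CPM under gtr-1 RNAi and 2.29 ± 0.491 CPM under EV, adjusted p = 0.00471) and the lysosomal lipase gene lipl-4 (3.38 ± 0.297 CPM under gtr-1 RNAi and 5.50 ± 0.216 CPM under EV, adjusted p = 0.00472). The cyclin-dependent kinase inhibitor gene cki-1 (log2 fold change -0.96 ± 0.25 SE), the acid ceramidase gene asah-1 (-0.49 ± 0.13 SE) and the trehalose phosphate synthase gene tps-1 (-0.26 ± 0.08 SE) were also lower by DESeq2, with adjusted p of 0.00304, 0.00517 and 0.0156. Higher by DESeq2 was the glutathione S-transferase gene gst-10, at 12.9 ± 2.48 CPM under gtr-1 RNAi and 8.14 ± 2.11 CPM under EV (0.67 ± 0.21, adjusted p = 0.0191). The glyceraldehyde phosphate dehydrogenase gene gpd-2 was at 136.5 ± 18.2 CPM under gtr-1 RNAi and 113.2 ± 14.6 CPM under EV and was not called. The other 5 of the 27, hsp-16.1, hsp-16.11, hsp-16.48, hsp-16.49 and scl-1, had too few counts for the edgeR test. Without gtr-1 RNAi replicate 3, edgeR called 7 of this list lower and 2 higher, and DESeq2 called 9 lower and 5 higher. Over all genes, the fits without it called 15.0% lower and 8.77% higher by edgeR, and 12.9% and 9.99% by DESeq2. The same shares stand beside the counts without gtr-1 RNAi replicate 3 for each list below.

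Of 10 tested genes that DAF-16 is known to repress, 9 had positive fold changes, against 7269 of all 14683, with a median log2 fold change of 0.37. Only 2 of the 10 lay above EV in each gtr-1 RNAi library, a placement of 16.6% of all genes tested. DESeq2 called 3 of the list higher and 0 lower, against 6.65% and 7.57% of all genes, and gave no adjusted p to 3 of the 13 listed. The 3 called higher were dod-17 at 3.20 ± 0.190 CPM under gtr-1 RNAi and 1.16 ± 0.646 CPM under EV, dod-19 at 236.5 ± 47.9 CPM under gtr-1 RNAi and 107.8 ± 41.0 CPM under EV, and the yolk protein gene vit-5 with a log2 fold change of 0.32 ± 0.12 SE (adjusted p = 0.0429). The groups overlapped for vit-5, where gtr-1 RNAi replicate 3, at 12848.5 CPM, lay below EV replicates 1 and 2, at 12998.9 and 13368.8 CPM. The receptor guanylyl cyclase gene gcy-18, the 1 with a negative value, was at 2.69 ± 0.170 CPM under gtr-1 RNAi and 2.81 ± 0.695 CPM under EV. With gtr-1 RNAi replicate 3 left out, edgeR called 1 of this list higher and DESeq2 4, and neither called any lower.

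The 16 tested genes from the insulin receptor to DAF-16 had a median log2 fold change of 0.014, and of the whole list DESeq2 called 1 higher and 0 lower. After gtr-1 RNAi replicate 3 was dropped, 2 were higher and 2 lower by edgeR, and DESeq2 called 2 higher and 1 lower. The daf-16 transcript itself averaged 252 ± 3.77 CPM under gtr-1 RNAi and 236 ± 6.56 CPM under EV (log2 fold change 0.092 ± 0.035 SE, edgeR adjusted p = 0.142), and the receptor gene daf-2 had a log2 fold change of 0.015. Counts of daf-16 mRNA do not show where the protein was. The phosphatase subunit gene pptr-1 (-0.16) and the 14-3-3 gene ftt-2 (-0.15) had the smallest edgeR p among negative values, and eak-7 had a log2 fold change of 0.11; DESeq2 called none of these 3. Of 15 DAF-16 partners and other stress factors, DESeq2 called 1, the lysosome and autophagy factor gene hlh-30, lower at 92.4 ± 10.4 CPM under gtr-1 RNAi and 120.4 ± 15.6 CPM under EV (adjusted p = 0.00782). A count of 1 in 15 is near the 7.57% of all genes that DESeq2 called lower. The kinase gene jnk-1 (-0.76), the heat shock factor gene hsf-1 (0.12) and the intestinal GATA factor gene elt-2 (0.24) were not called. Both tools called 1 of these 15 higher and 3 lower without gtr-1 RNAi replicate 3. Over all genes those fits called 15.0% lower and 8.77% higher by edgeR, and 12.9% and 9.99% by DESeq2.

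Next to the dismutases and catalases, DESeq2 called 3 of 21 peroxide and thiol defence genes higher and 0 lower, against 6.65% and 7.57% of all genes. The glutathione peroxidase gene gpx-5 was at 37.0 ± 7.40 CPM under gtr-1 RNAi and 19.3 ± 3.13 CPM under EV (log2 fold change 0.95 ± 0.16 SE, adjusted p = 4.73e-06), and gst-4 at 6.73 ± 0.996 CPM under gtr-1 RNAi and 4.63 ± 0.711 CPM under EV (adjusted p = 0.0440). By edgeR the adjusted p were 0.112 for gpx-5 and 0.118 for gst-4. The third was gst-10, given above. The thioredoxin gene trx-1 (log2 fold change -0.72, at 0.304 CPM under gtr-1 RNAi and 0.508 CPM under EV) had no adjusted p by DESeq2, and the reductase gene trxr-1 (-0.024) was not called. For this list the fits without gtr-1 RNAi replicate 3 gave 4 genes higher by edgeR and 5 by DESeq2, and 0 lower.

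Around iron and metals, DESeq2 called 4 genes of the list higher and 2 lower, where 14 were tested by edgeR. DESeq2 gave no adjusted p to 3 of the list. Over all genes, DESeq2 called 6.65% higher and 7.57% lower. Higher with ftn-2 and mtl-2 were the ZIP-family metal transporter gene zipt-2.3 (2.62 ± 0.201 CPM under gtr-1 RNAi and 1.32 ± 0.110 CPM under EV, adjusted p = 0.00626) and the ferroportin gene fpn-1.1 (27.0 ± 6.83 CPM under gtr-1 RNAi and 17.9 ± 1.56 CPM under EV, adjusted p = 0.00988). Lower were the divalent metal transporter gene smf-3 (5.55 ± 1.68 CPM under gtr-1 RNAi and 9.06 ± 1.78 CPM under EV, adjusted p = 0.0329) and the cytosolic aconitase gene aco-1 (199.7 ± 17.1 CPM under gtr-1 RNAi and 249 ± 15.4 CPM under EV, adjusted p = 0.00231). The groups of smf-3, aco-1, zipt-2.3 and ftn-2 did not overlap, while those of fpn-1.1 and mtl-2 did. When gtr-1 RNAi replicate 3 was left out, 4 were higher and 1 lower by edgeR, and 5 higher and 2 lower by DESeq2.

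Around icl-1 and nnt-1, DESeq2 called 1 of 21 TCA cycle and NADPH genes, the aconitase gene aco-1, lower. A count of 1 in 21 is not above the 7.57% of all genes that DESeq2 called lower. The mitochondrial aconitase gene aco-2 (log2 fold change -0.11), the succinate-CoA ligase gene sucl-2 (0.11) and the gluconeogenic gene pck-1 (0.21) had the smallest p of the others in each direction by edgeR and were not called. Leaving out gtr-1 RNAi replicate 3 gave 1 higher and 1 lower by edgeR, and 2 higher and 1 lower by DESeq2. Of 12 desiccation and trehalose genes, the synthase gene tps-1 was called lower by DESeq2, and the trehalase genes tre-1, tre-2 and tre-3 higher, with log2 fold changes of 0.22, 0.41 and 0.73. The largest was tre-3, at 32.3 ± 6.35 CPM under gtr-1 RNAi and 19.6 ± 3.71 CPM under EV. The trehalase gene tre-5 (-0.84) was not called. Both tools called 4 of the 12 higher and 2 lower once gtr-1 RNAi replicate 3 was left out.

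Genes of larval cuticle and moulting also had lower summed levels under gtr-1 RNAi. Their summed level was 233, 153 and 509 CPM in gtr-1 RNAi replicates 1, 2 and 3, against 619, 812 and 969 CPM in EV replicates 1, 2 and 3. Of 11 genes, 8 lay below EV in each gtr-1 RNAi library and DESeq2 called 4 lower, among them mlt-10 at 8.90 ± 3.97 CPM under gtr-1 RNAi and 19.3 ± 3.02 CPM under EV. Over all genes, 19.6% of those tested lay below EV in this way, and DESeq2 called 7.57% lower. Of the 11, 2 had no adjusted p by DESeq2. The median log2 fold change of the 11 was -1.302, and none of them was at 0 in any library. The collagen gene bli-1 averaged 0.716 CPM under gtr-1 RNAi and 0.243 CPM under EV. Without gtr-1 RNAi replicate 3 the median was -1.89 and edgeR called 8 lower and 1 higher. The part of these RNAs in the levels of the 10 genes was not tested.

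Tissue markers bear on the same comparison, since DAF-16 targets are used in several tissues, and their part in it was not tested either. Beside the counts below, DESeq2 called 7.57% of all genes lower and 6.65% higher. Without gtr-1 RNAi replicate 3 the shares were 12.9% and 9.99% by DESeq2, and 15.0% and 8.77% by edgeR. Intestine markers summed to 1937 to 2077 CPM under gtr-1 RNAi and 1849 to 2390 CPM under EV, with a median log2 fold change of 0.021, and DESeq2 called 3 of 12 higher, the intermediate filament gene ifc-2 among them, and 1, eps-8, lower. Leaving out gtr-1 RNAi replicate 3 gave 3 higher and 1 lower by edgeR, and 4 higher and 2 lower by DESeq2. Body wall muscle markers summed to 2785 to 3215 CPM under gtr-1 RNAi and 2262 to 3240 CPM under EV, with a median of 0.083; the titin gene ttn-1 was called lower and the myosin gene myo-3 was not called, and both tools called 1 lower and 0 higher without gtr-1 RNAi replicate 3. Neuron markers summed to 367 to 390.5 CPM under gtr-1 RNAi and 372 to 401 CPM under EV. Of 12, 11 had negative fold changes, against 7414 of all 14683 genes tested, with a median of -0.185. The synaptic release genes unc-13 and unc-31 were called lower by DESeq2. For the neuron markers, leaving out gtr-1 RNAi replicate 3 gave an edgeR median of -0.307 and 4 genes lower by both tools. Germline and oocyte markers summed to 13783 to 14931 CPM under gtr-1 RNAi and 13335 to 13781 CPM under EV, with a median of 0.12, and DESeq2 called 3 of 13 higher, among them the maternal RNA regulators spn-4 and pos-1. Both tools called 9 of the 13 higher without gtr-1 RNAi replicate 3. Genes first used in embryos summed to 349.5 to 366 CPM under gtr-1 RNAi and 377 to 398.6 CPM under EV, with a median of -0.015 over 12 tested; elt-1 was called lower by DESeq2 and sdz-28 was not called. Dropping gtr-1 RNAi replicate 3 gave an edgeR median of -0.155 and 4 genes lower by both tools.

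**Figure D4:**
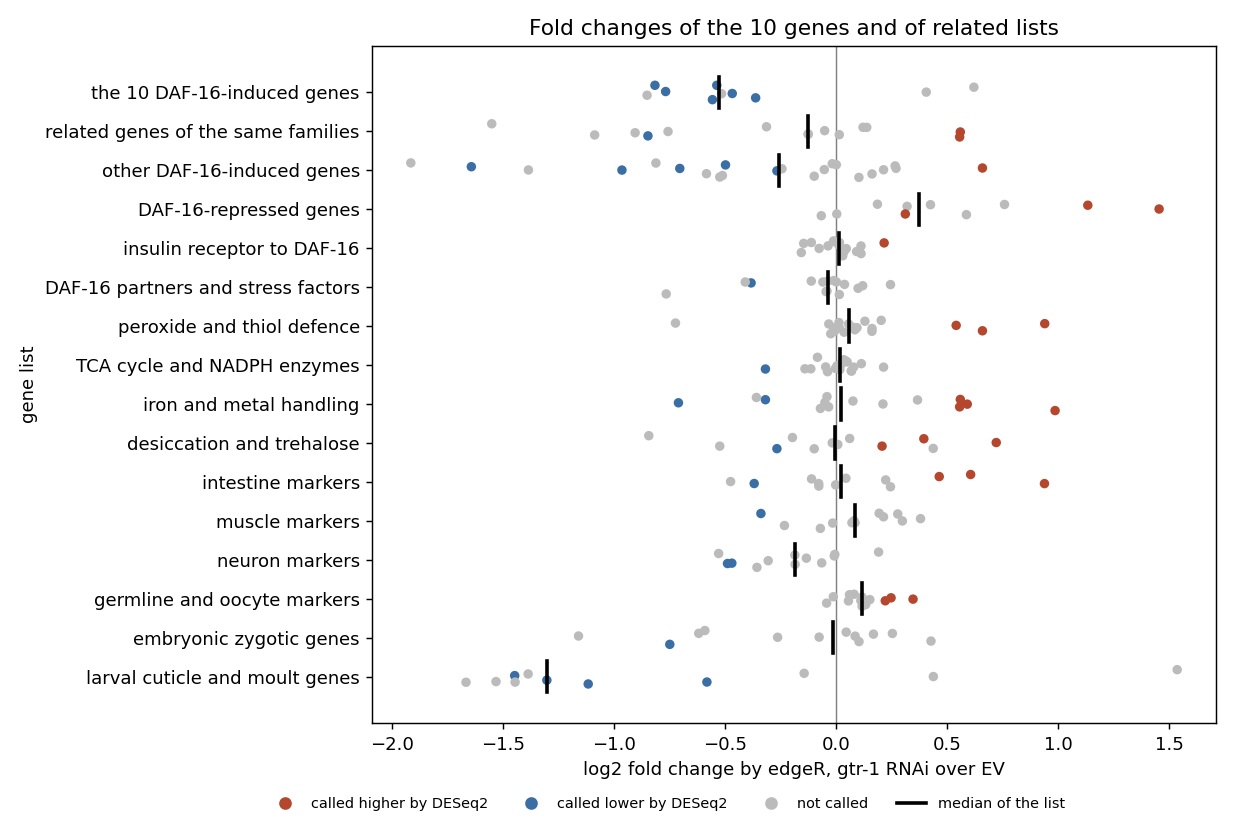
Log2 fold changes by edgeR (gtr-1 RNAi over EV) of tested genes in each list, 1 point per gene with a random vertical offset, a black bar at the list's median, and colours for DESeq2 calls (red higher, blue lower). The 10 DAF-16-induced genes have a median of -0.53, and larval cuticle and moult genes lie further below 0, with a median of -1.302.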

How the data were processed

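The values used are whole-number counts per gene, deposited by the authors for 6 libraries of a stranded mRNA kit; the normalised columns of the same table were not used. STAR and HTSeq are the tools, and WBcel235 the build, that the submitters' processing notes list. Their versions, the gene models and the strand mode of counting are not given in those notes or the labels, so reads of overlapping genes on opposite strands cannot be assigned with certainty. For gtr-1 RNAi, titles read GTR1 and count headers GTOL; they were matched by the letters GT and the replicate number, and what OL stands for is not stated. Whether replicates were separate cultures is not stated, and p-values then cover only the variation among these samples, which could be technical. No 2 libraries were alike to within counting noise (lowest chi-square over its degrees of freedom 5.15).

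All genes were fitted together with edgeR 4.0.16 in R 4.3.3 (filterByExpr, TMM, robust quasi-likelihood F test, no covariate, Benjamini-Hochberg adjustment over 14683 genes, threshold 0.05). All 10 genes passed the filter. For edgeR, SE are the size of the log2 fold change over the square root of F. For DESeq2, SE are those the tool reports. DESeq2 1.42.0 and limma 3.58.1 were alternatives. The fits were tested on simulated counts. Those counts held no library like gtr-1 RNAi replicate 3, so they do not show how the tools treat it. Coordinates and exon lengths are from Ensembl's WBcel235 annotation, which held all 22407 identifiers. The genes, lists and tests were chosen with earlier results of these data known. Named genes were gtr-1, the 10, their family members, and in each pathway list the 2 per direction with the smallest edgeR p and up to 4 DESeq2 calls per direction; for tissue, embryo and moult lists, the 2 with the smallest p. The genes daf-16, daf-2, scl-1 and the hsp-16 genes were named outside that rule, after their values were seen. A gene of the insulin pathway list is not reported here.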

Additional observations from a re-analysis of the deposited data

How the results depend on the processing

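Across 24 alternative settings, all drawn from the same 6 libraries, all 10 fold changes kept their direction. The setting with an adjusted p under 0.1 reused the main fit and could not change a sign. The median log2 fold change of the 10 ranged from -0.69 to -0.41, against -0.53 in the main fit. It moved by less than 0.205, the SD among the gtr-1 RNAi libraries of their median log2 deviation over the 10 genes. Replicate 3 widened that SD, with a deviation of -0.02 against -0.39 and -0.36 in replicates 1 and 2. The counts of calls did depend on the tool. Against 0 genes by edgeR, of the 10 or of all genes, DESeq2 called 6 of the 10 lower, with 971 of all genes lower and 853 higher. With library quality weights limma-voom called 8 of the 10 lower, with 3178 of all genes lower and 2359 higher, while limma-voom without weights called 0. With edgeR, other size factors, other low-count filters, no robust step, the 10 most abundant genes left out and an adjusted p under 0.1 each gave 0 calls; at an unadjusted p under 0.05, edgeR had 8 of the 10 lower. With each library left out in turn, by either tool, calls ranged from 0 to 8 lower and from 0 to 1 higher among the 10, and from 0 to 2236 lower and 0 to 1552 higher among all genes; the top of each range came without gtr-1 RNAi replicate 3. Deviations of same-numbered libraries from their group means had correlations of 0.281, -0.109 and 0.272, against -0.418 to 0.313 for libraries of unlike number. With 3 libraries per group, these values cannot decide whether the replicate numbers pair the libraries. With a replicate block, edgeR called 2 of the 10 lower, lea-1 and hil-1, with 492 of all genes lower and 467 higher, and DESeq2 called 5 of the 10 lower, with 934 of all genes lower and 736 higher. The cause of these differences was not tested. With 85 to 187 counts per library, sod-3 had the fewest counts of the 10. Counts of DAF-16 motifs in promoters and protein identity between family members were planned and not run.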
